A study of Homo sapiens with 4 samples.

Results

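HOX cluster genes encode homeodomain transcription factors and stand in 4 tight clusters, HOXA, HOXB, HOXC and HOXD, on separate chromosomes. They were taken here as every gene whose symbol is HOX followed by a cluster letter from A to D and a number, which gave 39 of the 54628 genes in the deposited count tables. HOXA holds 11 of them on chromosome 7, HOXB 10 on chromosome 17, HOXC 9 on chromosome 12 and HOXD 9 on chromosome 2.

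Poly(A) RNA was sequenced from Panc1 cells, a long-established human line that was derived from a ductal carcinoma of the pancreas. The labels assign 2 libraries to HMGB2 siRNA, a small interfering RNA against a high mobility group box protein of chromatin, and 2 libraries to scramble siRNA, the control. No other treatment, clone or time is given, and nothing in the labels says whether a group's libraries are separate cultures, so the spread behind each p-value may be technical. The comparison asks which transcripts differ with the level of HMGB2.

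HMGB2 went against the labels. It was counted 4021 and 2746 times in the libraries labelled HMGB2 siRNA, against 346 and 319 times in the libraries labelled scramble (log2 fold change 3.07 ± 0.08, SE; adjusted p = 1.54e-33 in the quasi-likelihood test of edgeR with Benjamini-Hochberg adjustment). The headers of all 4 count tables also name the other treatment. Groups keep their labelled names below, where higher and lower describe the libraries labelled HMGB2 siRNA, which held more HMGB2 RNA, relative to the libraries labelled scramble. The total gene counts were 31852391 and 20976561 in the libraries labelled HMGB2 siRNA, against 21874647 and 20340695 in the libraries labelled scramble. A count of 0 in a library allows up to 3 counts, or 0.0954 to 0.146 CPM (counts adjusted for library size), a limit for counting error only. Epithelial markers had reads (6 of 6), and 4 of them, CDH1, KRT19, KRT8 and KRT7, were higher in the libraries labelled HMGB2 siRNA (edgeR adjusted p under 0.05). Of all genes tested 16.7% were higher. The log2 fold changes of the 6 markers ran from 0.09 to 1.21. The part of these markers in the HOX values was not tested. Markers of acinar, endocrine, endothelial and white blood cells had at most 4 reads in a library, and of the fibroblast markers COL1A1 had 1150 to 1899 reads while DCN was at 0 in every library and LUM had 1 read in all.

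HOX proteins bind DNA through the homeodomain, often together with PBX and MEIS partners, at short sites with a TAAT core. Genes with the same number in different clusters are paralogs. Genes at the 3′ end of a cluster (low numbers) act early and toward the head in the embryo, and genes at the 5′ end (high numbers) act later and toward the tail and the limb tips. Polycomb complexes keep unused clusters silent, MLL-type enzymes keep used ones active, and retinoic acid switches on the 3′ genes. Many carcinoma lines keep expressing a part of the HOX set.

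Of the 28 HOX genes with enough counts for a test, 6 passed (adjusted p under 0.05), where 30.8% of all genes tested did. HOXC12, HOXC4 and HOXD4 had higher levels, and HOXB2, HOXB3 and HOXB9 lower ones, in the libraries labelled HMGB2 siRNA. HOXC4 and HOXD4, both of paralog group 4, had the largest folds of these. The upstream window of HOXC4 and that of HOXD4 are shown because these genes passed and have a promoter in the RefSeq table, and each is 250 bases before to 50 after the listed start on GRCh38.p14. The HOXC4 window is chr12:54016638-54016937 (+) and is also the one listed for HOXC5. The HOXD4 window is chr2:176151300-176151599 (+), and its start, at 176151550, differs from the HOXD4 start in the count tables, 176150394. Capitals mark TAAT read on either strand (TAAT or ATTA).
HOXC4: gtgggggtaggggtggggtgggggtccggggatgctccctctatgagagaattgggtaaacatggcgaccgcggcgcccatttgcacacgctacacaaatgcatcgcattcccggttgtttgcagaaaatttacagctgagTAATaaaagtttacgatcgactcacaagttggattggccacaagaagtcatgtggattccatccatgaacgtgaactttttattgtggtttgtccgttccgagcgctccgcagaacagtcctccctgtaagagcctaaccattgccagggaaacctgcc
HOXD4: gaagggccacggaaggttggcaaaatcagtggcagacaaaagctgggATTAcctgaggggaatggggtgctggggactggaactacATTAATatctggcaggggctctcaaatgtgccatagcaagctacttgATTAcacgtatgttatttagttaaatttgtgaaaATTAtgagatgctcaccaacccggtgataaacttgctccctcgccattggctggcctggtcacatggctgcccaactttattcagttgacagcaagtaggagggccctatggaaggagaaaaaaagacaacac

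The HOXC4 window held 1 TAAT match and the HOXD4 window held 5. Of 34943 promoters in the RefSeq table, 50.3% held at least 1 TAAT and 7.72% held at least 5. Promoters were listed for 20 of the 39 HOX genes, and of their 26 distinct windows 20 (76.9%) held a TAAT. The word TGATNNAT, searched on both strands for the joint PBX and HOX site, was found in neither window and in 7.42% of all promoters. GC content was 51.7% in the HOXC4 window, with 15 CpG pairs, and 47.3% in the HOXD4 window, with 4 CpG pairs. A match describes the letters and is not a bound site.

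Most HOX RNA in these cells came from HOXB and HOXC. Levels per length are given as CPM per kilobase of listed exon (FPKM). HOXC held 50.6 ± 0.60% of the summed HOX FPKM in the libraries labelled HMGB2 siRNA, against 46.3 ± 0.57% in those labelled scramble (SD, n = 2 each). HOXB held 45.1 ± 0.23% in the libraries labelled HMGB2 siRNA, against 49.3 ± 0.60% in those labelled scramble (SD, n = 2 each). HOXA held 3.96 ± 0.27% and 4.13 ± 0.09%, and HOXD 0.37 ± 0.09% and 0.29 ± 0.05%, in the libraries labelled HMGB2 siRNA and those labelled scramble (SD, n = 2 each). With 2 libraries a group the smallest exact permutation p is 0.333 (two-sided), so these shares are descriptions.

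**Figure D1:**
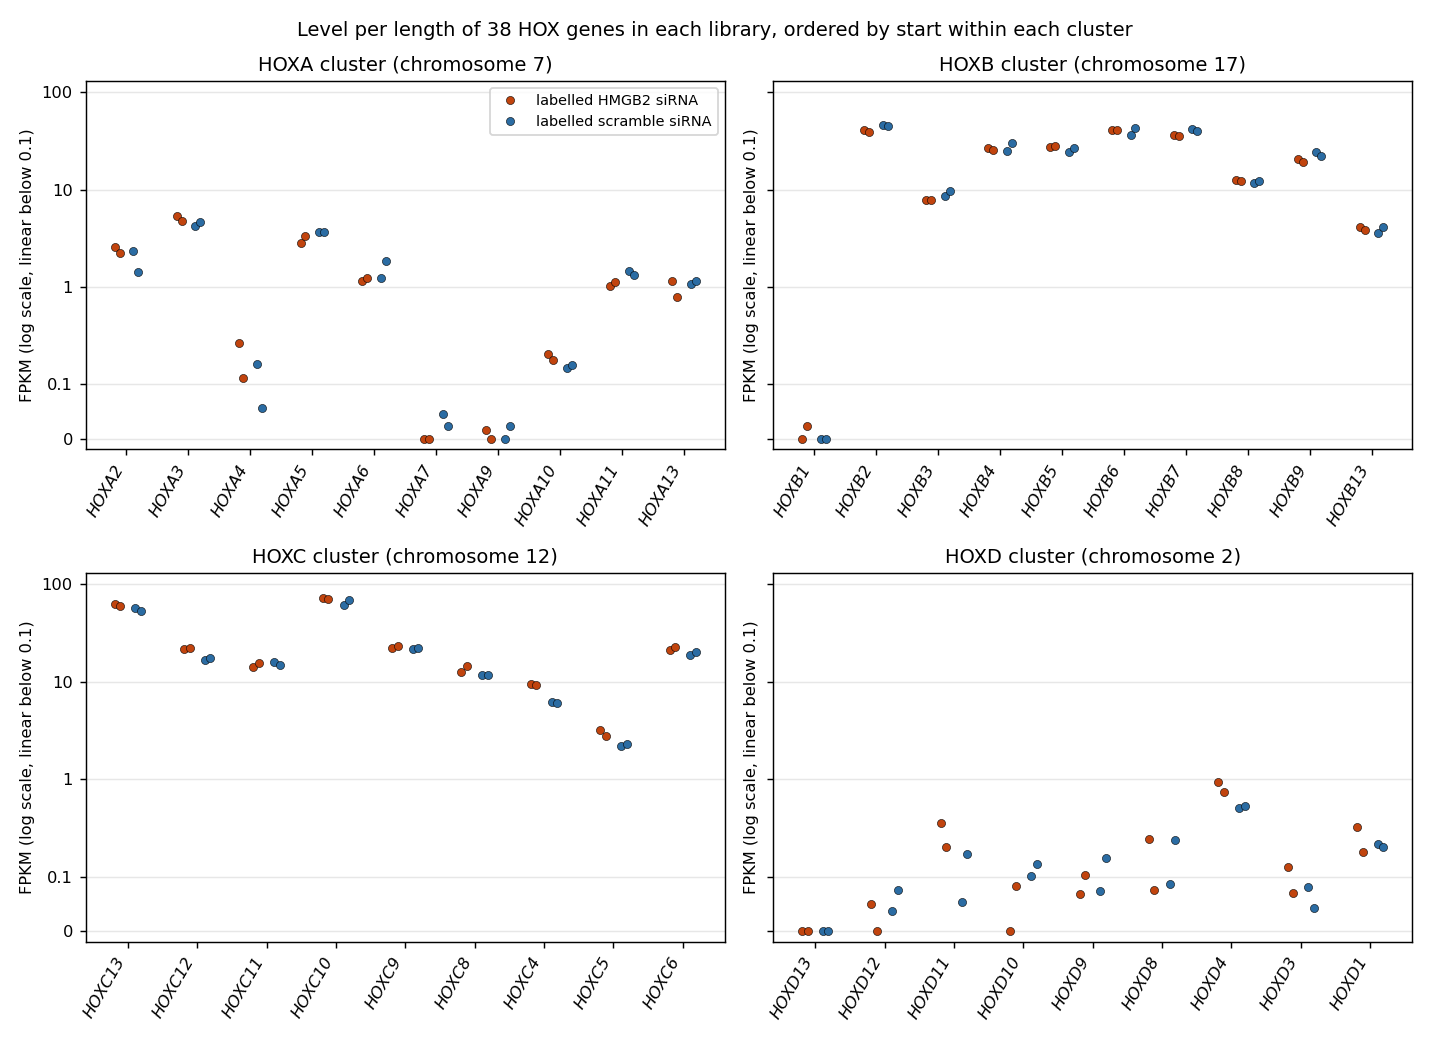
FPKM of 38 HOX genes in each of the 4 libraries, 1 panel per cluster, with genes in the order of their start coordinate and a scale that is logarithmic above 0.1. HOXB2 to HOXB9 and all of HOXC lie above 2 FPKM, whereas HOXD4, at 0.832 and 0.518 FPKM on average in the libraries labelled HMGB2 siRNA and those labelled scramble, is the highest of HOXD.

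Within the set, HOXC10, which acts in lumbar motor neurons and the hindlimb in mouse, had the highest level, 71.5 ± 2.0 FPKM in the libraries labelled HMGB2 siRNA and 64.5 ± 5.6 FPKM in those labelled scramble (SD, n = 2 each). HOXC13, a regulator of hair keratins, followed with 61.5 ± 1.7 FPKM in the libraries labelled HMGB2 siRNA and 55.2 ± 3.0 FPKM in those labelled scramble (SD, n = 2 each). These genes did not overlap in either group. HOXB2, HOXB6 and HOXB7 came next, with means over all 4 libraries of 42.6, 40.2 and 38.5 FPKM, differences that lie within the range of HOXB6 among the libraries labelled scramble (SD 5.06 FPKM). HOXB4 and HOXB5 averaged 26.9 and 26.7 FPKM over the 4 libraries and could not be ordered. HOXC9, HOXB9, HOXC6 and HOXC12 lay between 19.6 and 22.3 FPKM, HOXC11 at 15.1 and HOXC8 and HOXB8 at 12.5 and 12.2 FPKM on the same average. HOXB3 averaged 8.48 FPKM over a listed length of 18337 bases, the longest of the set, so its level per length depends on that listing.

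Paralogs of the same number stood at widely different levels. In 12 of 13 paralog groups the highest FPKM belonged to a HOXB or HOXC gene. In group 13 HOXC13 averaged 58.3 FPKM, while HOXD13, a digit gene that is mutated in synpolydactyly, had no reads in any library. In group 4 HOXB4, known for expanding blood stem cells, averaged 26.9 FPKM and HOXA4 0.149 FPKM. In group 9 HOXC9 averaged 22.3 FPKM and HOXA9, a leukaemia-associated gene, had 1 and 0 reads in the libraries labelled HMGB2 siRNA, against 0 and 1 in those labelled scramble. HOXA9 shares 1494 of its 2064 exon bases with HOXA10-HOXA9 on the same strand. The overlap setting of the counting is not given, so its counts may miss reads from those bases.

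Summed over the set, HOX RNA overlapped between the groups, with 1184 ± 12.8 CPM in the libraries labelled HMGB2 siRNA and 1162 ± 42.5 CPM in the libraries labelled scramble (SD, n = 2 each; exact permutation p = 0.667, two-sided). As a share of all gene counts, HOX genes took 0.118% and 0.115% in the libraries labelled HMGB2 siRNA, against 0.114% and 0.122% in the libraries labelled scramble. In RNA from bulk cells, fewer cells that express a gene and less RNA per cell cannot be told apart.

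Of the 39 HOX genes, 28 had enough counts to be tested, 8 in HOXA, 9 in HOXB, 9 in HOXC and 2 in HOXD. The test called 6 of the 28 (21.4%), 3 higher and 3 lower, where 30.8% of all 15161 genes tested were called (16.7% higher, 14.1% lower). DESeq2 called 3 HOX genes, beside 10.2% of the 28647 genes in its fit. The count of HOX genes changed when any 1 library was left out, and so did the count over all genes. A fit that leaves a group with 1 library assumes that the lone library varies like the other group. Among all calls 54.3% were higher, and 42.0% with upper-quartile scaling or 43.3% with total-count scaling.

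The changes were small. The 28 HOX genes had a median log2 fold change of 0.06 (range -0.37 to 0.70), and all genes tested one of -0.01, and the median size regardless of sign was 0.19 for the HOX genes and 0.21 for all. HOXC4 and HOXD4 were past 1.5-fold, 2 of 28, where 13.6% of all genes tested were. Both libraries labelled HMGB2 siRNA lay above both labelled scramble for 13 HOX genes and below for 7, together 71.4% of 28, beside 63.7% of all genes tested (32.0% above, 31.6% below). Among genes with a mean of at least 10 CPM, 5 of 19 HOX genes (26.3%) and 39.7% of 9435 genes were called.

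**Figure D2:**
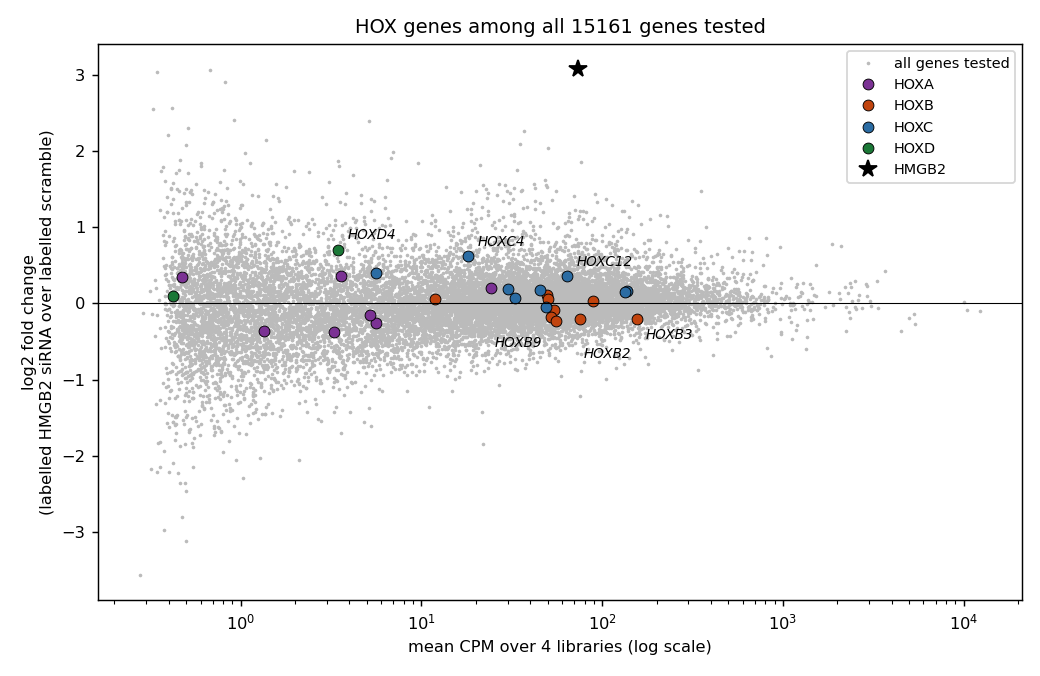
Log2 fold change (libraries labelled HMGB2 siRNA over those labelled scramble) against mean CPM over the 4 libraries for all 15161 genes tested (grey), with 27 HOX genes coloured by cluster and HMGB2 as a star. The HOX genes lie between -0.37 and 0.70, well below HMGB2 at 3.07.

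HOXC4 and HOXC12 were higher in the libraries labelled HMGB2 siRNA (HMGB2 counts 4021 and 2746) than in those labelled scramble (346 and 319), and 8 of the 9 HOXC genes had non-overlapping higher values there, beside 32.0% of all genes tested. HOXC4 is the most 3′ gene of the HOXC cluster and works in the neck and upper trunk region of the embryo. It had 22.1 and 21.9 CPM (counts of 695 and 449) in the libraries labelled HMGB2 siRNA, against 14.5 and 14.2 CPM (319 and 296 counts) in the libraries labelled scramble. The groups were well apart, and the log2 fold change was 0.62 ± 0.11 (SE; 95% interval 0.40 to 0.83; edgeR adjusted p = 8.04e-06). HOXC12 is a 5′ gene next to HOXC13. It had 71.5 and 72.4 CPM in the libraries labelled HMGB2 siRNA, against 54.7 and 57.8 CPM in the libraries labelled scramble. The groups did not overlap, and the log2 fold change was 0.35 ± 0.07 (SE; 95% interval 0.21 to 0.50; edgeR adjusted p = 0.00013). HOXC4 and HOXC12 were called in all 13 alternatives run. HOXC12 shares 86 exon bases with LOC105369775 on the other strand, and the strand setting of the counting is not given in the sources used here, so reads there cannot be told apart.

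The other 7 HOXC genes did not pass, and their log2 values ran from -0.05 for HOXC11 to 0.40 for HOXC5. The median over the 9 HOXC genes was 0.17. HOXC13 had 148 and 142 CPM in the libraries labelled HMGB2 siRNA, against 135 and 125 CPM in the libraries labelled scramble (log2 0.16, edgeR adjusted p = 0.0652), and shares 172 exon bases with HOXC13-AS. HOXC10, which shares 44 exon bases with HOXC-AS3, had 144 and 139 CPM (labelled HMGB2 siRNA) against 120 and 135 CPM (labelled scramble; log2 0.15, edgeR adjusted p = 0.0894). In both genes the libraries labelled HMGB2 siRNA were the higher ones, without overlap. HOXC8, a gene of brachial motor neurons in mouse, had counts of 946 and 711, or 32.4 ± 3.2 CPM, in the libraries labelled HMGB2 siRNA, against 617 and 589, or 28.1 ± 0.17 CPM, in those labelled scramble (SD, n = 2 each; log2 0.20, edgeR adjusted p = 0.103). HOXC9, a thoracic motor neuron gene in mouse, had 33.0 and 34.4 CPM (labelled HMGB2 siRNA) against 31.8 and 32.4 CPM (labelled scramble; log2 0.07, edgeR adjusted p = 0.609). HOXC11 was the one with overlap, with 46.1 and 50.5 CPM in the libraries labelled HMGB2 siRNA, against 51.7 and 48.3 CPM in those labelled scramble (edgeR adjusted p = 0.663). Leaving out 1 library changed 3 of these calls: HOXC13 passed without the first library labelled scramble (log2 0.22), and HOXC10 (0.24) and HOXC6 (0.22) passed without the second.

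HOXC4, HOXC5 and HOXC6 begin at the same listed base, 54016888 on chromosome 12, and share their first listed exon of 527 bases (54016888 to 54017414). Reads in that exon cannot be assigned to 1 of the 3 genes, and the overlap setting of the counting is not given in the sources used here. HOXC5 had 6.78 and 5.90 CPM in the libraries labelled HMGB2 siRNA, against 4.72 and 4.94 CPM in the libraries labelled scramble (log2 0.40, 95% interval 0.05 to 0.75, edgeR adjusted p = 0.0786). HOXC6, a gene of the cervicothoracic region, had counts of 1465 and 1027, or 48.3 ± 2.4 CPM, in the libraries labelled HMGB2 siRNA, against 909 and 926, or 42.9 ± 2.2 CPM, in those labelled scramble (SD, n = 2 each; log2 0.17, 95% interval 0.01 to 0.33, edgeR adjusted p = 0.102). In all 3 genes the libraries labelled HMGB2 siRNA were the higher ones. HOXC4 counts per 100 HOXC6 counts were 47.4 and 43.7 in the libraries labelled HMGB2 siRNA, against 35.1 and 32.0 in the libraries labelled scramble. These averaged 45.6 ± 2.6 (labelled HMGB2 siRNA) and 33.5 ± 2.2 (labelled scramble; SD, n = 2 each), with an exact permutation p of 0.333, the smallest that groups of 2 allow. HOXC5 counts per 100 HOXC6 counts were 14.5 and 11.8 (labelled HMGB2 siRNA) against 11.4 and 11.1 (labelled scramble). The ratio for HOXC4 thus lay apart by more than its spread, and that for HOXC5 by less than its SD of 1.95 in the libraries labelled HMGB2 siRNA.

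**Figure D3:**
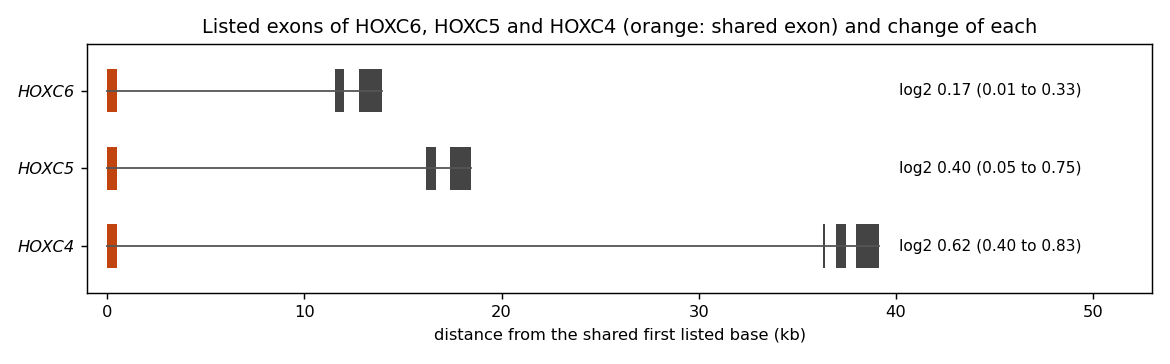
Listed exons of HOXC6, HOXC5 and HOXC4 in kilobases from their common first base, with the shared exon in orange and the log2 fold change (libraries labelled HMGB2 siRNA over those labelled scramble, 95% interval) at the right. The values are 0.17, 0.40 and 0.62, and the 3 genes differ only in the exons drawn in grey.

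In HOXB, 3 of the 9 genes tested fell in the libraries labelled HMGB2 siRNA (HMGB2 counts 4021 and 2746) relative to those labelled scramble (346 and 319), beside 14.1% of all genes tested, and the median log2 fold change was -0.08. HOXB2, which specifies hindbrain motor neurons in mouse, had 71.4 and 68.4 CPM in the libraries labelled HMGB2 siRNA, against 80.5 and 80.1 CPM in the libraries labelled scramble (log2 -0.20 ± 0.07 SE, edgeR adjusted p = 0.0264). HOXB3, a hindbrain gene, had 144 and 145 CPM in the libraries labelled HMGB2 siRNA, against 156 and 178 CPM in the libraries labelled scramble (log2 -0.21 ± 0.07 SE, edgeR adjusted p = 0.0139). HOXB9, a gene of the thoracic segments in mouse, had 52.8 and 49.1 CPM in the libraries labelled HMGB2 siRNA, against 62.5 and 57.6 CPM in the libraries labelled scramble (log2 -0.24 ± 0.08 SE, edgeR adjusted p = 0.0147). In each of the 3 genes both libraries labelled HMGB2 siRNA were the lower ones, by less than 1.5-fold. These calls did not hold in every fit. HOXB2 was lost without either library labelled HMGB2 siRNA, without a filter on low counts and with DESeq2. HOXB9 was lost in the same 4 fits and without the first library labelled scramble, and HOXB3 without either library labelled HMGB2 siRNA or the second labelled scramble (log2 -0.11). HOXB3 shares 1202 exon bases with HOXB-AS2 and 279 with HOXB-AS1 on the other strand.

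HOXB7, reported to be high in several carcinomas, had 49.8 and 48.3 CPM in the libraries labelled HMGB2 siRNA, against 56.6 and 54.9 CPM in the libraries labelled scramble (log2 -0.18, edgeR adjusted p = 0.0608). Its groups did not overlap, and it passed when scaled by the upper quartile or by total counts, with a minimum mean of 1 CPM and without the second library labelled scramble. HOXB5 had 51.1 and 52.2 CPM in the libraries labelled HMGB2 siRNA, against 45.2 and 50.1 CPM in those labelled scramble (log2 0.12, edgeR adjusted p = 0.281). HOXB8 had 51.9 and 50.5 CPM (labelled HMGB2 siRNA) against 48.8 and 50.2 CPM (labelled scramble; log2 0.05, edgeR adjusted p = 0.667), with neighbouring values that nearly touched. HOXB4, HOXB6 and HOXB13 overlapped between the groups, with log2 values of -0.08, 0.04 and 0.06; HOXB6 was at -0.01 with upper-quartile or total-count scaling. HOXB4 passed without the first library labelled scramble (log2 -0.20), and HOXB6 without the second (0.17). HOXB13, a prostate gene at the far 5′ end, had 12.6 and 11.6 CPM in the libraries labelled HMGB2 siRNA, against 10.9 and 12.5 CPM in those labelled scramble. HOXB1, the most 3′ gene, had 0 and 1 reads (labelled HMGB2 siRNA) against 0 and 0 (labelled scramble).

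**Figure D4:**
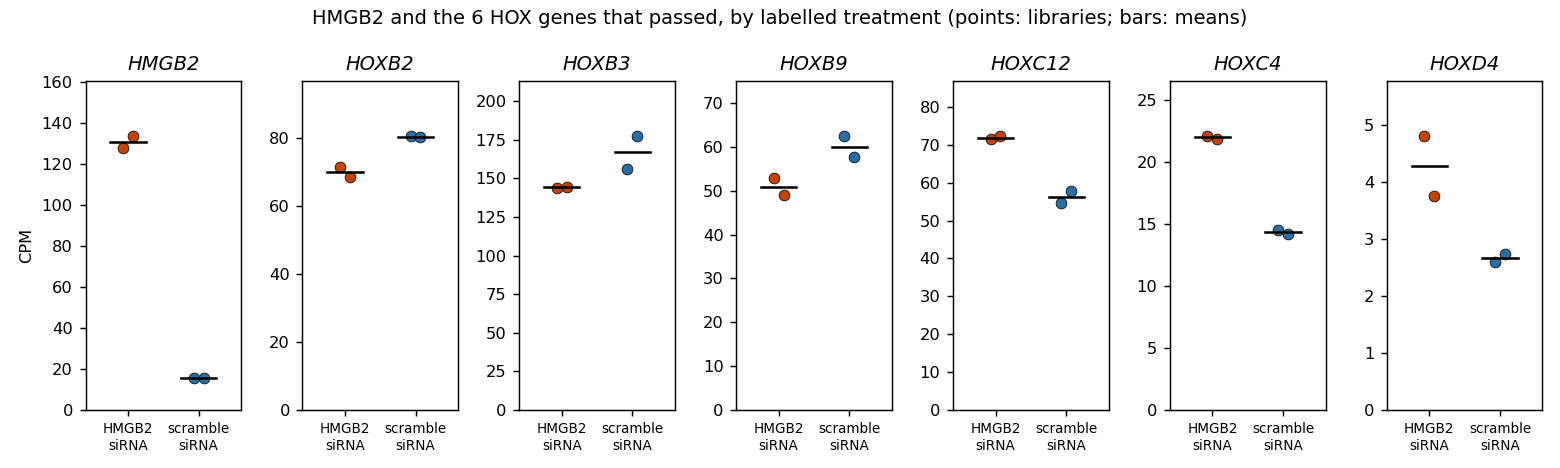
CPM of HMGB2 and of the 6 HOX genes that passed the test in each library (points) with the group mean (bar), libraries labelled HMGB2 siRNA at the left and those labelled scramble at the right. HMGB2 averaged 131 CPM (labelled HMGB2 siRNA) against 15.5 CPM (labelled scramble), and the 6 HOX genes differed by at most 1.63-fold.

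HOXD had the lowest summed FPKM of the clusters, and HOXD4 was the one gene there that passed. HOXD4 acts in the hindbrain and the neck vertebrae in mouse. It had 4.80 and 3.75 CPM (counts of 151 and 77) in the libraries labelled HMGB2 siRNA (HMGB2 counts 4021 and 2746), against 2.59 and 2.74 CPM (57 and 57 counts) in the libraries labelled scramble (346 and 319). The groups did not overlap, although the first library labelled HMGB2 siRNA stood above the second, and the log2 fold change was 0.70 ± 0.22 (SE; 95% interval 0.25 to 1.15; edgeR adjusted p = 0.0128). Without that first library the log2 value was 0.50 and did not pass, and DESeq2 did not call it. HOXD4 shares 19 exon bases with MIR10B. HOXD8 was tested with 20 and 4 reads in the libraries labelled HMGB2 siRNA, against 5 and 13 in those labelled scramble, which overlap widely (edgeR adjusted p = 0.927).

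The other 7 HOXD genes were too low for the filter and were not tested in the fit reported. HOXD11 had 19 and 7 reads in the libraries labelled HMGB2 siRNA, against 2 and 6 in those labelled scramble, and HOXD3 had 22 and 8 (labelled HMGB2 siRNA) against 10 and 5 (labelled scramble). HOXD1 had 19 and 7 (labelled HMGB2 siRNA) against 9 and 8 reads (labelled scramble), and shares 145 exon bases with HAGLR. HOXD9 had 4 and 4 (labelled HMGB2 siRNA) against 3 and 6 reads (labelled scramble), HOXD12 had 4 and 0 (labelled HMGB2 siRNA) against 2 and 4 (labelled scramble), and HOXD10 had 0 and 3 (labelled HMGB2 siRNA) against 4 and 5 (labelled scramble). The first library labelled HMGB2 siRNA was also the deepest. In CPM HOXD11 lay higher and HOXD10 lower in the libraries labelled HMGB2 siRNA, without overlap, and the others overlapped. In the fit without a filter on low counts none of these genes passed (HOXD11 at log2 1.38, edgeR adjusted p = 0.211). HOXD13 had no reads in the 4 libraries.

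No HOXA gene passed in edgeR, in DESeq2 or in limma-voom, where edgeR called 30.8% of all genes tested. Beside 6016 of all 15161 genes tested, 1 of the 8 HOXA genes had an unadjusted edgeR p under 0.05. That gene was HOXA3, which shapes the thymus and parathyroid, with 27.8 and 24.4 CPM in the libraries labelled HMGB2 siRNA (HMGB2 counts 4021 and 2746), against 21.8 and 23.7 CPM in the libraries labelled scramble (346 and 319; log2 0.21, edgeR adjusted p = 0.109). Its exons share 398 bases with HOXA-AS2 and HOXA-AS3. HOXA2, which patterns neural crest of the second arch, had 4.29 and 3.80 CPM (labelled HMGB2 siRNA) against 3.91 and 2.40 CPM (labelled scramble; log2 0.36, edgeR adjusted p = 0.235), with overlap. HOXA3 passed without the second library labelled scramble (log2 0.27) and HOXA2 without the first (0.77).

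Further 5′ in HOXA, the log2 values were mostly below 0 and none passed. HOXA5, a gene of lung development, had 4.77 and 5.56 CPM in the libraries labelled HMGB2 siRNA, against 6.09 and 6.14 CPM in those labelled scramble (log2 -0.26, edgeR adjusted p = 0.292). HOXA11, a gene of the forearm and the uterus, had 2.70 and 3.02 CPM (labelled HMGB2 siRNA) against 3.86 and 3.50 CPM (labelled scramble; log2 -0.37, edgeR adjusted p = 0.224). HOXA6, with 105 exon bases shared with HOXA-AS3, had 36 and 25 counts (labelled HMGB2 siRNA) against 27 and 38 (labelled scramble; log2 -0.37, edgeR adjusted p = 0.468). In CPM these 3 genes lay lower without overlap in the libraries labelled HMGB2 siRNA, whereas HOXA10 lay higher without overlap and HOXA13 overlapped. HOXA13, mutated in hand-foot-genital syndrome, had counts of 182 and 82 (labelled HMGB2 siRNA) against 118 and 120 (labelled scramble; log2 -0.16, edgeR adjusted p = 0.583), and HOXA10, a uterine gene with 608 exon bases shared with HOXA10-AS and 216 with HOXA10-HOXA9, had 18 and 10 counts (labelled HMGB2 siRNA) against 9 and 9 (labelled scramble; log2 0.35, edgeR adjusted p = 0.674). The median over the 8 HOXA genes tested was -0.10. HOXA4 had 14 and 4 reads in the libraries labelled HMGB2 siRNA, against 6 and 2 in those labelled scramble, and HOXA7, of which 1507 bases overlap HOXA-AS3, had 0 and 0 (labelled HMGB2 siRNA) against 2 and 1 (labelled scramble).

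**Figure D5:**
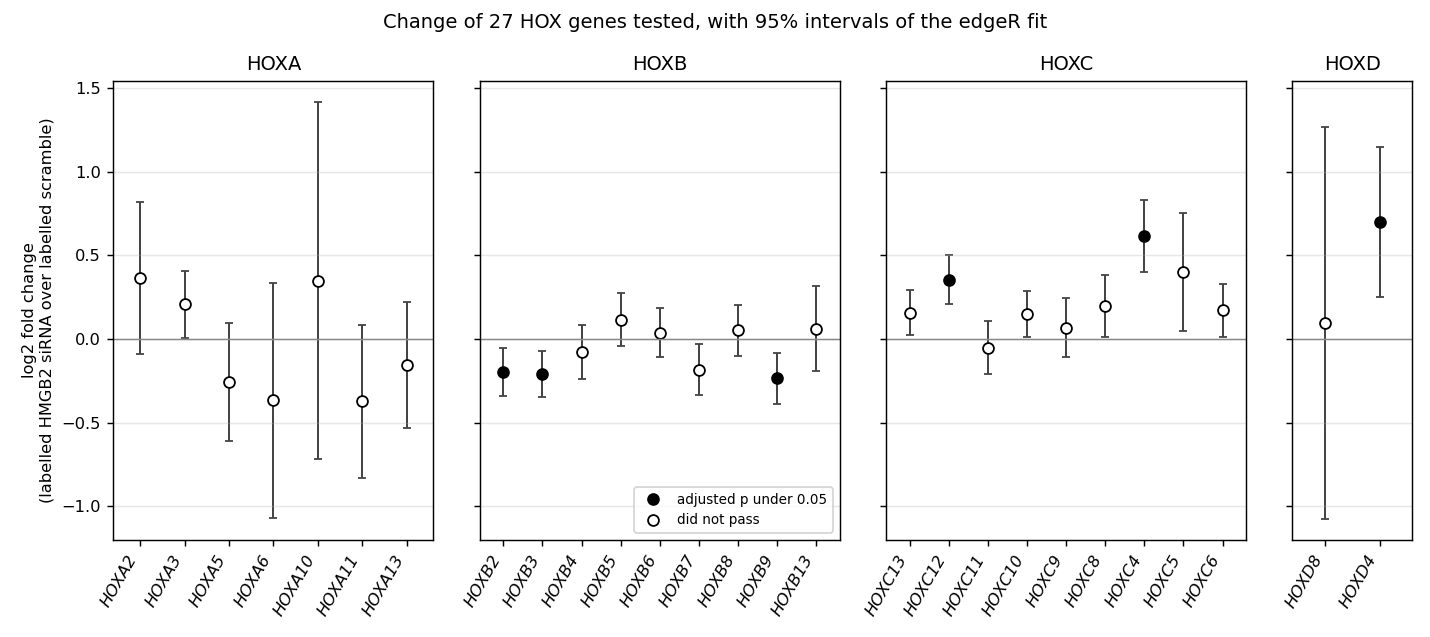
Log2 fold change (libraries labelled HMGB2 siRNA over those labelled scramble) with 95% intervals of the edgeR fit for 27 HOX genes tested, by cluster and in the order of start coordinates. Filled points passed the test: HOXC12, HOXC4 and HOXD4 above 0, HOXB2, HOXB3 and HOXB9 below 0.

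Other genes inside the clusters, most of them antisense, microRNA or other noncoding genes, were called in both directions. Of 37 other genes listed within the cluster spans, 18 were tested, 2 were higher and 3 lower in the libraries labelled HMGB2 siRNA (27.8% of the 18, beside 30.8% of all genes tested), and the median log2 fold change was -0.15. HOXC13-AS, antisense to HOXC13, had counts of 526 and 346 in the libraries labelled HMGB2 siRNA, against 257 and 209 in the libraries labelled scramble (log2 0.63 ± 0.12 SE, edgeR adjusted p = 4.06e-05). Per 100 HOXC13 counts it had 11.3 and 11.9 in the libraries labelled HMGB2 siRNA, against 8.64 and 8.03 in those labelled scramble, with no overlap. HOXB-AS3 had 18.5 and 19.9 CPM in the libraries labelled HMGB2 siRNA, against 24.3 and 29.0 CPM in those labelled scramble (log2 -0.48 ± 0.10 SE, edgeR adjusted p = 0.000232), and shares 208 exon bases with HOXB6 and 73 with HOXB5. Its call, like that of HOXC13-AS, held in all 13 alternatives. HOXB-AS2 had 3.56 and 3.85 CPM (labelled HMGB2 siRNA) against 4.95 and 7.39 CPM (labelled scramble; log2 -0.74 ± 0.20 SE, edgeR adjusted p = 0.00322), which was lost with DESeq2 and without the first library labelled HMGB2 siRNA or the second labelled scramble. HAGLR, antisense to HOXD1, had 12.7 and 14.2 CPM (labelled HMGB2 siRNA) against 10.1 and 11.2 CPM (labelled scramble; log2 0.33, edgeR adjusted p = 0.0409), and HOXC-AS2, named after its value was seen, was the remaining call (log2 -0.46, edgeR adjusted p = 0.0434). The HAGLR call was lost without any 1 library but the second labelled scramble, and also in limma-voom, in DESeq2 and under total-count or upper-quartile scaling. The HOXC-AS2 call was lost without any 1 library, without a filter on low counts and with DESeq2. The list had 2 calls with DESeq2 or without the first library labelled HMGB2 siRNA and 3 without the second, and without the second labelled scramble 3 were higher and 1 lower. HOTAIR, a long noncoding RNA of the HOXC cluster chosen for naming after its values were seen, had 56.7 and 58.5 CPM (labelled HMGB2 siRNA) against 58.4 and 69.3 CPM (labelled scramble) and did not pass (log2 -0.15, edgeR adjusted p = 0.142).

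Among 40 tested genes within 500 kb outside the clusters, 5 were higher and 4 lower (22.5% of the 40, beside 30.8% of all genes tested), with a median log2 fold change of 0.03. The lower ones were 7 with upper-quartile or total-count scaling and 2 with DESeq2 or without the first library labelled HMGB2 siRNA, and 8 were higher without the first labelled scramble. HNRNPA1, a splicing factor gene beside HOXC, was at 0.68 and ATP5MC2, a subunit of the ATP synthase, at 0.41. SKAP2, an adaptor gene beside HOXA, was at 0.51, and CBX1, which encodes a heterochromatin protein beside HOXB, at -0.48. These 4 were called in all 13 alternatives.

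Of the TALE cofactors, the homeodomain partners of HOX proteins, 1 of 7 tested rose in the libraries labelled HMGB2 siRNA, beside 16.7% of all genes tested, and the median log2 fold change of the 7 was 0.35. MEIS2 had 8.97 and 9.16 CPM in the libraries labelled HMGB2 siRNA, against 6.18 and 6.14 CPM in the libraries labelled scramble (log2 0.56 ± 0.15 SE, edgeR adjusted p = 0.00369), without overlap, and the call held in 12 of 13 alternatives, the exception being DESeq2. PBX2 and PBX4, named with PBX3 and PKNOX2 after their values were seen, had log2 values of 0.35 and 0.46 and did not pass. Without the second library labelled scramble 2 of the list passed. PBX3, at 31.2 and 30.9 CPM (labelled HMGB2 siRNA) against 33.5 and 29.3 CPM (labelled scramble), was the most highly counted PBX gene and overlapped between the groups. PKNOX2 had no reads.

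Of 29 tested Polycomb genes, whose products place and read repressive marks on HOX clusters, 11 were higher and 5 lower in the libraries labelled HMGB2 siRNA, 55.2% of the 29 beside 30.8% of all genes tested, with a median log2 fold change of 0.11. The lower calls were 2 without the second library labelled HMGB2 siRNA and 3 without the first, without the second labelled scramble, without a filter on low counts or with DESeq2. SUZ12, a core subunit of the complex that methylates histone H3, had 112 and 113 CPM in the libraries labelled HMGB2 siRNA, against 58.4 and 66.9 CPM in those labelled scramble (log2 0.84 ± 0.07 SE, edgeR adjusted p = 9.55e-14). MTF2, an accessory subunit of the same complex, was at 0.67, and CBX6, a chromodomain subunit of the other complex, was at 0.83. All 3 were called in the 13 alternatives. Of 18 MLL and trithorax-type activators, 3 rose (ASH1L at 0.40, KMT2A at 0.30 and PSIP1 at 0.21) and KAT6A fell (-0.26), 22.2% of the 18 beside 30.8% of all genes tested, with a median of 0.06. PSIP1 was called in 4 of 13 alternatives and lost with the replicate block, upper-quartile or total-count scaling, no filter on low counts, DESeq2 or thinning, and without any 1 library but the second labelled scramble. KAT6A was lost without either library labelled HMGB2 siRNA, without a filter on low counts and with DESeq2. In those 4 fits the list had 2 calls, and it had 7 without the second library labelled scramble.

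Of 13 tested genes of the retinoic acid pathway, 4 rose and none fell in the libraries labelled HMGB2 siRNA in the fit reported. That is 30.8% of the 13, the same share as of all genes tested, and the median log2 fold change was 0.03. With upper-quartile or total-count scaling, a minimum mean of 1 CPM or limma-voom, 1 gene of the list was called lower. CRABP2, which carries retinoic acid to the nucleus, had 170 and 164 CPM in the libraries labelled HMGB2 siRNA, against 106 and 99.3 CPM in those labelled scramble (log2 0.70 ± 0.07 SE, edgeR adjusted p = 3.91e-12). The receptors RARG and RARA were at 0.37 and 0.35, and DHRS3, a retinaldehyde reductase, at 0.32. RARA was lost without the first library labelled HMGB2 siRNA and DHRS3 without the second. Of 11 tested homeobox genes related to the HOX class but outside the clusters, none passed with all 4 libraries in edgeR, DESeq2 or limma-voom. Over all genes tested edgeR called 30.8%. An unadjusted edgeR p under 0.05 was seen in 3 of the 11, beside 6016 of all 15161 genes tested. The most highly counted of the 11 were GBX2, with 14.9 and 15.6 CPM (labelled HMGB2 siRNA) against 12.9 and 13.6 CPM (labelled scramble), and MSX2, with 8.97 and 8.19 CPM (labelled HMGB2 siRNA) against 8.72 and 8.30 CPM (labelled scramble).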

How the data were processed

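Poly(A) RNA of 4 Panc1 libraries was measured. The authors deposited raw counts, whole numbers of reads for each gene over its listed exons, from featureCounts of Subread 1.6.3, per the file headers and the submitters' processing notes, which also name STAR, SAMtools 1.9 and DESeq2 and the build hg38 (GRCh38). Settings for strand, multimapping and overlapping genes are not given in the sources used here. Samples were grouped by the treatment label, although file headers name the other treatment.

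Counts of all genes were fitted with edgeR 4.0.16 in R 4.3.3 (quasi-likelihood test, TMM scaling, filterByExpr with a minimum count of 10 and a total of 15, group as the only term). Benjamini-Hochberg adjusted p-values under 0.05 over 15161 genes were called. CPM and FPKM use TMM-scaled sizes. Intervals are 95% intervals of the fit. They may cover no difference between cultures, as the labels do not say whether a group's libraries are separate cultures. The HOX genes and gene lists were chosen with earlier results of these data known. Named genes are HMGB2, HOX genes, up to 4 called genes from each list (smallest p), or the 2 with the highest mean CPM where none passed. A few genes that this rule selects are not reported here, and a few others are named as chosen after their values were seen. The lists are cofactors, Polycomb, MLL and trithorax-type activators, retinoic acid, related homeobox genes, cell type markers and genes in or within 500 kb of the clusters.

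Results were recomputed in 13 ways: scaling by RLE, by the upper quartile or by total counts, testing every gene or those above a mean of 1 CPM, DESeq2 1.42.0, limma-voom (limma 3.58.1), a replicate block, thinning to the smallest library and dropping each library. Simulated data held 14949 genes with the means and sizes of these libraries, and 14751 of them were unchanged. There edgeR called 32.0% of 50 genes changed 1.25-fold, 75.5% of 49 at 1.5-fold, 77.6% of 49 at 2-fold and 96.0% of 50 at 4-fold. In the real data 30.8% of genes tested were called. The adjusted p depends on the share of changed genes, so the simulated rates need not carry over. Library pairs within a group differed by more than sampling noise (chi-square per degree of freedom 2.93 for the libraries labelled HMGB2 siRNA and 5.23 for those labelled scramble). Python 3.11.15, pandas 2.3.3, SciPy 1.17.1 and matplotlib 3.10.9 were used.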

Additional observations from a re-analysis of the deposited data

How the results depend on the processing

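The count of HOX genes called was 6 in the fit reported. It was 3 with DESeq2, and between 2 and 10 when 1 library was left out. Calls in the higher direction ranged from 2 to 7 without 1 library. Calls in the lower direction were 1 with DESeq2, 1 without a filter on low counts, and 0 to 3 without 1 library. Over all genes DESeq2 called 2936, and 2384 to 5195 were called without 1 library, against 4671. DESeq2 gave no adjusted p for 13 HOX genes, which are not counted as lost.

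HOXB6 turned to -0.012 on the log2 scale with total-count scaling and -0.015 with upper-quartile scaling. Without 1 library, log2 values ran from -0.47 to 0.065 in HOXA13, from -0.028 to 0.17 in HOXB13, from -0.20 to 0.064 in HOXB4, from -0.082 to 0.17 in HOXB6, from -0.11 to 0.016 in HOXC11 and from -1.09 to 0.97 in HOXD8, none of which passed in the fit reported. The cause was not tested. With unshared exon length, HOXB held 44.0% and HOXC 51.7% of HOX FPKM in the libraries labelled HMGB2 siRNA, against 48.3% and 47.3% in those labelled scramble.

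Same-numbered libraries did not deviate together over all genes tested (correlation -0.01). Over the HOX genes tested the correlation was -0.62. Genes with few reads weigh in that value. HOXD8 had 20 and 4 reads in the libraries labelled HMGB2 siRNA, against 5 and 13 in those labelled scramble. The correlation without HOXD8 was not computed. With 2 libraries a group these values cannot decide whether the numbers pair the libraries. With the replicate block 6 HOX genes were called, the same 6, and 4457 genes in all. For 11 HOX genes the counts were too low for the filter, and the fit reported did not test them. In the fit without a filter on low counts none of those with reads passed. HOXD11 had the smallest adjusted p among them (log2 1.38, edgeR adjusted p = 0.211).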
